A study of Mus musculus with 12 samples.

Results

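The genes described here are 10 regulators of the cranial and cardiac neural crest, chosen by symbol in both tables of counts: the transcription factors *Foxc1*, *Foxc2*, *Tfap2a*, *Tfap2b*, *Sox9* and *Twist1*, the secreted guidance cue *Sema3c*, the plexin receptors *Plxna2* and *Plxnd1*, and the endothelin receptor *Ednra*. They are 10 of the 23420 genes listed, and all 10 had enough counts to be tested. Whole mouse embryos at E12.5 were profiled by RNA-seq, with 1 library for each of 12 embryos from 2 lines, to compare embryos that lack the arginine methyltransferase CARM1 with embryos that lack the transcription factor PAX3. The *Carm1* line, of strain C57BL/6, gave 3 *Carm1* null embryos, homozygous for Carm1tm1Mtb, an allele without exons 2 and 3, and 3 *Carm1* wild-type embryos from intercrosses of heterozygotes. The *Pax3* line, labelled as mixed and kept as a closed colony with CBA/Ca, C3H/He and 101 ancestry, gave 3 *Pax3* null embryos, homozygous for Pax3Sp2h (Splotch), and 3 *Pax3* wild-type embryos from intercrosses of heterozygotes. Both alleles are constitutive, so every tissue of a null embryo carries them. Of the 10 genes, 4 changed in *Carm1* null embryos, where 13.3% of all genes tested did, and 6 in *Pax3* null embryos, where 24.5% did. For 3 of the 10 (*Tfap2a*, *Tfap2b* and *Twist1*) the change differed between the lines, as it did for 19.1% of all genes. Of these 3, *Tfap2a* alone kept this call in all 22 alternative analyses. *Twist1* and *Tfap2b* lost it with offsets for the length and GC content of transcripts. The calls of *Tfap2b* in *Carm1* null embryos and of *Foxc2* and *Plxna2* in *Pax3* null embryos were also lost in some alternatives.

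Neural crest cells leave the dorsal neural tube and migrate into the head, where they form most of the facial skeleton and cranial ganglia, and into the cardiac outflow tract, where they help to divide the aorta from the pulmonary artery. FOXC, AP-2, SOX9 and TWIST1 factors act in crest cells and in the mesenchyme they form, while SEMA3C, a ligand of neuropilins and plexins, and endothelin, the ligand of EDNRA, guide and pattern these cells. PAX3 is made in the dorsal neural tube, in neural crest and in muscle precursors. Each of the 10 genes is also used outside the crest (in limb buds, somites, skin, kidney, blood vessels or brain, depending on the gene), and RNA of whole embryos does not separate these sources. In such bulk samples, fewer cells that use a gene cannot be told apart from less RNA of the gene in each cell.

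PAX3 binds DNA through a paired domain and a homeodomain, so the promoters of the regulators were read for the letters that these domains prefer. The windows below are those of the 4 genes whose call in the *Pax3* line held under every alternative tried, and each holds the 250 bases before a RefSeq start (GRCm38.p6), written 5′ to 3′ on the strand of the gene. *Tfap2a* has 2 such starts. Capitals mark the homeodomain letters TAATT, on either strand, and the letters GCCNNNGGC that AP-2 factors prefer, since AP-2 genes are among the 10.
Tfap2a at chr13:40734921-40735170, minus strand: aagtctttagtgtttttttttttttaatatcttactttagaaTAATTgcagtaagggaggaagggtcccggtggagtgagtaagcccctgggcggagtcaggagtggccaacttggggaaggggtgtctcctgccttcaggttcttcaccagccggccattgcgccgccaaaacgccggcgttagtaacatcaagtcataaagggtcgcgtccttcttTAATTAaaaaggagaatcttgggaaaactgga
Tfap2a at chr13:40733796-40734045, minus strand: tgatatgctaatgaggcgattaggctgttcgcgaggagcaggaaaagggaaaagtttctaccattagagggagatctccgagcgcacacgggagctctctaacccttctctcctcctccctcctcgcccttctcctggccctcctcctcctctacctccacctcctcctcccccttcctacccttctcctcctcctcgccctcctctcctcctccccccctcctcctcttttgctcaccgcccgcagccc
Tfap2b at chr1:19211804-19212053, plus strand: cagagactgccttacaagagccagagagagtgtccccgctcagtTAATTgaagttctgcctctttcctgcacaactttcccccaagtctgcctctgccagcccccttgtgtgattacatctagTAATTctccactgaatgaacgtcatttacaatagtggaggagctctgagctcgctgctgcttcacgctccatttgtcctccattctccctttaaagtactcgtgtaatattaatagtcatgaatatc
Foxc1 at chr13:31806396-31806645, plus strand: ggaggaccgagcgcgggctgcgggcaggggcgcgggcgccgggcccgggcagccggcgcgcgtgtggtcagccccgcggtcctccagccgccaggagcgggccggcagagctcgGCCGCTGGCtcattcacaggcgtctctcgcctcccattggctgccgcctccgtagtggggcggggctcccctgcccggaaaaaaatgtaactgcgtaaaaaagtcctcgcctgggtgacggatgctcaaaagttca
Twist1 at chr12:33957421-33957670, plus strand: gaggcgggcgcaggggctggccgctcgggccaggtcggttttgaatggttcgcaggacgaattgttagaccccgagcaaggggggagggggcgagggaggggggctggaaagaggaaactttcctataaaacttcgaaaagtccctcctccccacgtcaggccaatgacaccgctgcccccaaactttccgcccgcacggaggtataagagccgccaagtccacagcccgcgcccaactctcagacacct

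The upstream *Tfap2a* window holds TAATT at 3 places, of which a pair on opposite strands overlaps in the run TAATTA that lies 32 bases before the start. *Tfap2b* holds it at 2 places, 206 and 127 bases before its start. Neither the second *Tfap2a* window nor those of *Foxc1* and *Twist1* hold it. RefSeq windows were matched for 8 of the 10 genes, 9 windows in all, and TAATT stood in 2 of the 9, against 25.0% of 32851 mouse promoters of the same length. The AP-2 letters stood in 3 of the 9 (*Foxc1*, *Plxnd1* and *Sema3c*), against 13.7% of promoters. The letters GTCACGC of a paired-domain core, on either strand, stood in 0 of the 9, against 1.78% of promoters. The E-box letters CANNTG, which bHLH factors such as TWIST1 prefer, stood in 3 of the 9 against 66.2%. Letters preferred by SOX factors (ACAAAG) and by forkhead factors (TGTTTAC), on either strand, stood in 0 of the 9, against 16.5% and 3.17%, and TAAT and ATTA set 2 or 3 bases apart stood in 0, against 0.384% and 0.463%. A match is a run of letters and was not tested for binding, and the absence of one describes these windows alone.

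Libraries held 17183344 to 23518692 counts. *Carm1* was lower in *Carm1* null than in wild-type embryos, with a log2 fold change of -1.0 (adjusted *P* = 1.2e-15). It remained at 73.3 ± 3.6 CPM (SD, n = 3) in the null embryos. The allele keeps part of the exons, but counts are per gene, so which exons hold these counts was not tested. *Pax3* was lower in *Pax3* null embryos, with a log2 fold change of -0.43 (adjusted *P* = 0.0014), and higher in *Carm1* null embryos, with a log2 fold change of 0.37 (adjusted *P* = 0.001). Both targeted genes therefore went the way of the labels, although neither fell to 0. Y-linked transcripts were present in *Carm1* wild-type replicate 3, *Pax3* null replicate 3 and *Pax3* wild-type replicates 2 and 3 (4447 to 6118 counts) and at 0 to 23 counts in the other libraries, so no *Carm1* null library holds them. CPM values are library-size scaled counts after TMM normalization over all 12 libraries, whereas log2 fold changes, null over wild type, come from the fit of each line.

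*Foxc1* and *Foxc2* encode forkhead factors of head mesenchyme, somites and the developing outflow tract. *Foxc1* (chr13:31806633-31812476, plus strand, GRCm38) stood at 67.8, 64.5 and 62.3 CPM in *Carm1* null embryos and at 52.8, 52.5 and 47.9 CPM in their wild types. It stood at 67.3, 82.8 and 77.7 CPM in *Pax3* null embryos and at 62.5, 64.1 and 59.8 CPM in theirs. In both lines every null embryo lay above every wild-type embryo. The log2 fold change was 0.35 ± 0.056 (SE) in the *Carm1* line (27.1% higher, adjusted *P* = 4.5e-05) and 0.30 ± 0.067 in the *Pax3* line (23.1% higher, adjusted *P* = 0.0018). *Foxc1* was the only one of the 10 genes to rise past the threshold in both lines, and the difference between its fold changes, 0.06 on the log2 scale, ran from -0.13 to 0.24 (± 2 SE).

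*Foxc2* (chr8:121116171-121118895, plus strand) stood at 25.0, 23.4 and 25.7 CPM in *Carm1* null embryos against 23.3, 22.3 and 21.7 CPM in wild type, and at 32.4, 38.6 and 38.9 CPM in *Pax3* null embryos against 26.7, 30.6 and 27.3 CPM. The groups did not overlap in either line, although in the *Carm1* line the lowest null embryo exceeded the highest wild type by less than the SD of either group. *Foxc2* was higher in *Pax3* null embryos by a log2 fold change of 0.39 ± 0.087 (31% higher, adjusted *P* = 0.0017). In the *Carm1* line its log2 fold change of 0.14 ± 0.078 did not pass the threshold (adjusted *P* = 0.26). The difference between the lines, -0.24 with limits of -0.47 and -0.01 at ± 2 SE, did not pass it either once adjusted over all genes (adjusted *P* = 0.15). With offsets for the length and GC content of transcripts, described further on, the value of *Foxc2* in the *Pax3* line was 0.22 and its adjusted *P* was 0.06 (9e-05 to 0.06 over all alternatives), and the difference between the lines was -0.08 (adjusted *P* = 0.67).

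*Tfap2a* and *Tfap2b* encode AP-2 factors, which act at the border of the neural plate, in crest cells of the face and in surface ectoderm, and *Tfap2b* also in the smooth muscle of the ductus arteriosus. *Tfap2a* (chr13:40715302-40738376, minus strand) stood at 32.0, 28.1 and 29.7 CPM in *Carm1* null embryos and at 27.1, 25.4 and 27.6 CPM in wild type. It stood at 22.3, 22.0 and 21.4 CPM in *Pax3* null embryos and at 29.9, 31.8 and 29.3 CPM in wild type. The null embryos thus lay above all wild types in the *Carm1* line and below all wild types in the *Pax3* line. *Tfap2a* was lower in *Pax3* null embryos by a log2 fold change of -0.46 ± 0.080 (27.3% on the linear scale, adjusted *P* = 0.00013), while in the *Carm1* line 0.17 ± 0.074 did not pass the threshold (adjusted *P* = 0.13). The difference between the lines, 0.64 ± 0.11, was the largest among the 10 genes (adjusted *P* = 7e-05), and it passed the threshold in all 22 alternatives, with values from 0.59 to 0.68.

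*Tfap2b* (chr1:19208914-19238576, plus strand) stood at 84.6, 83.4 and 82.9 CPM in *Carm1* null embryos and at 90.6, 105 and 92.6 CPM in wild type. It stood at 77.9, 71.8 and 79.7 CPM in *Pax3* null embryos and at 113, 97.5 and 111 CPM in wild type. Null embryos lay below wild types in both lines. *Tfap2b* fell in both, with a log2 fold change of -0.20 ± 0.053 in the *Carm1* line (adjusted *P* = 0.0077) and -0.48 ± 0.062 in the *Pax3* line (adjusted *P* = 2.2e-06). The decrease was greater in the *Pax3* line, by 0.28 ± 0.085 (adjusted *P* = 0.017). The *Carm1* call rested on *Carm1* wild-type replicate 2, the library with 105 CPM: without it the log2 fold change was -0.13 and the adjusted *P* 0.16 (0.00055 to 0.16 over all alternatives). The difference lost its call without *Carm1* wild-type replicate 1 (adjusted *P* = 0.051), without *Pax3* null replicate 2 (0.056) and with the length and GC offsets (0.20, adjusted *P* = 0.057), over a range of 0.0026 to 0.057 in all alternatives.

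**Figure D1:**
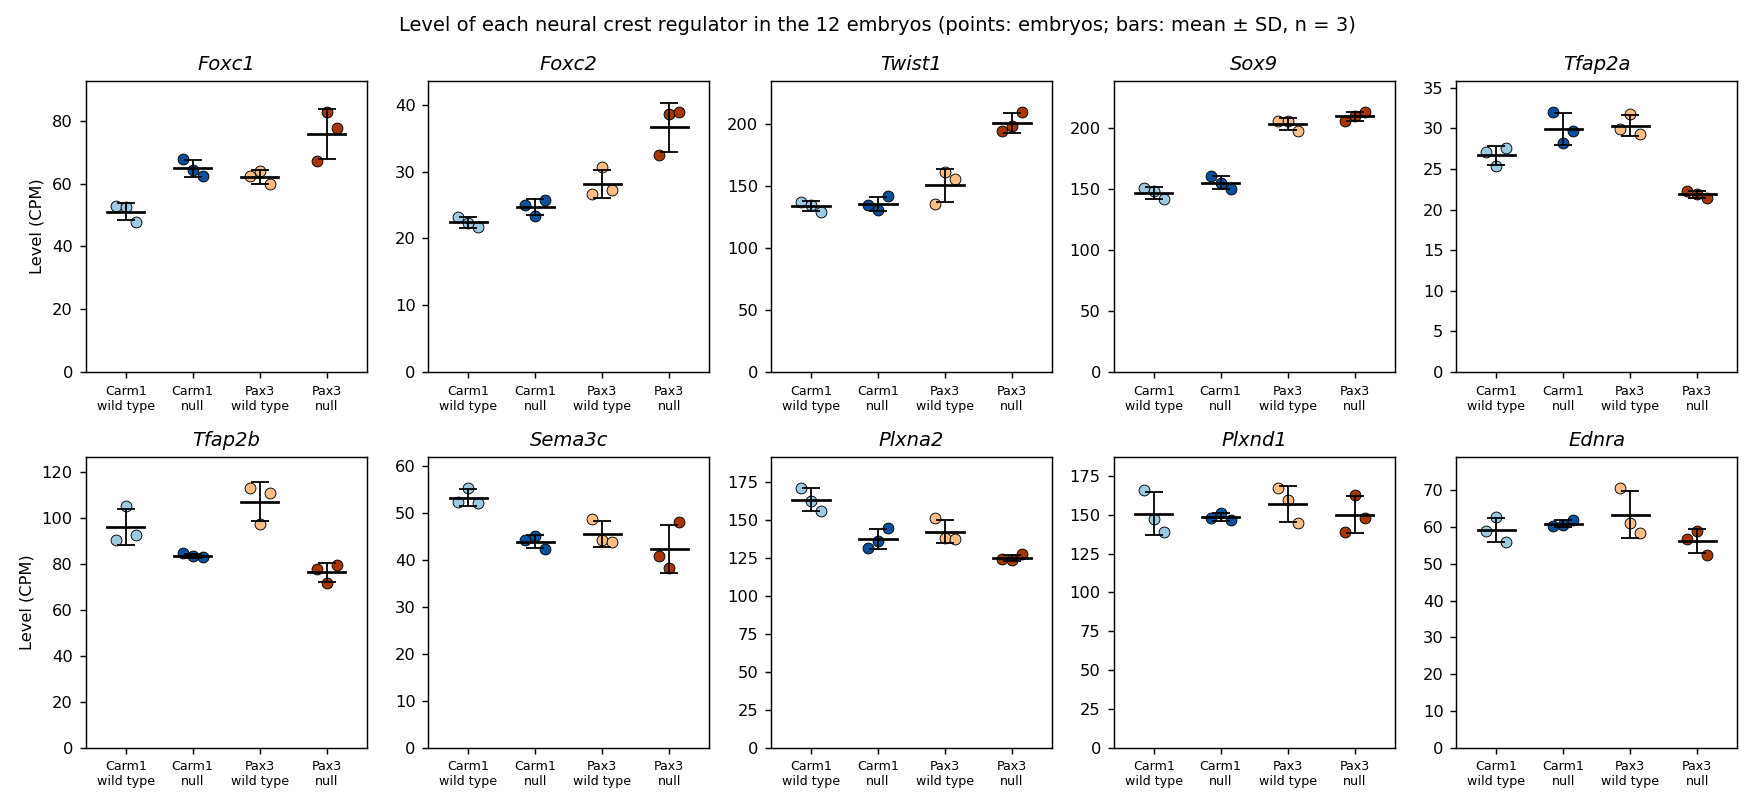
Level of each of the 10 regulators in CPM (linear axis from 0) in the 12 embryos; points are embryos, and bars are the mean ± SD of 3. *Foxc1* and *Foxc2* lie higher in null than in wild-type embryos of both lines without overlap, *Tfap2a* lies higher in *Carm1* null and lower in *Pax3* null embryos, and *Twist1* stands apart in *Pax3* null embryos.

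*Twist1* encodes a bHLH factor of head mesenchyme and limb buds, and *Sox9* an HMG-box factor of crest cells and of the precursors of cartilage. *Twist1* (chr12:33957671-33959829, plus strand) stood at 135, 130.4 and 142 CPM in *Carm1* null embryos and at 138, 135 and 129 CPM in wild type. It stood at 195, 198 and 209.7 CPM in *Pax3* null embryos and at 136, 161 and 156 CPM in wild type. The *Carm1* groups overlapped, while all *Pax3* null embryos lay above the wild types. The log2 fold change was 0.42 ± 0.059 in the *Pax3* line (34.0% higher, adjusted *P* = 8.5e-06), against 0.02 ± 0.046 in the *Carm1* line (adjusted *P* = 0.83). The difference between the lines was -0.39 ± 0.076 (adjusted *P* = 0.00041). *Twist1* has a short and GC-rich transcript, and with the length and GC offsets its value in the *Pax3* line was 0.17 (adjusted *P* = 0.0073) and the difference between the lines -0.15 (adjusted *P* = 0.071). Over all alternatives the adjusted *P* ranged from 5.2e-11 to 0.0073 for the former and from 6e-05 to 0.081 for the latter.

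*Sox9* (chr11:112782224-112787760, plus strand) stood at 161, 155 and 149.6 CPM in *Carm1* null embryos against 151, 149 and 141 CPM in wild type, and at 206, 209.8 and 213 CPM in *Pax3* null embryos against 206, 206 and 197 CPM. The groups overlapped in both lines. Its log2 fold change was 0.08 ± 0.045 in the *Carm1* line, with limits of -0.01 and 0.17 at ± 2 SE, and 0.06 ± 0.050 in the *Pax3* line, with limits of -0.04 and 0.16 (adjusted *P* = 0.28 and 0.45). Replicates of *Sox9* differed little (CV of 1.68 to 3.55%), so these limits are narrow. With the offsets the *Carm1* value was 0.11 and passed the threshold (adjusted *P* = 0.034), and the *Pax3* value was 0.11 (adjusted *P* = 0.053), within ranges over all alternatives of 0.034 to 0.61 and 0.053 to 0.69.

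*Sema3c* (chr5:17574281-17730268, plus strand) encodes the semaphorin that attracts cardiac crest cells toward the outflow tract. It stood at 44.1, 45.0 and 42.3 CPM in *Carm1* null embryos and at 52.3, 55.3 and 52.0 CPM in wild type, so that the null embryos were all lower. It stood at 40.8, 38.1 and 48.0 CPM in *Pax3* null embryos and at 48.7, 44.1 and 43.8 CPM in wild type, where *Pax3* null replicate 3 lay within the wild-type range. *Sema3c* fell in the *Carm1* line by 0.28 on the log2 scale (SE 0.058, 17.8% lower, adjusted *P* = 0.00079) and kept this call in all 17 alternatives. Its log2 fold change in the *Pax3* line was -0.10 ± 0.081, with limits of -0.26 and 0.07 at ± 2 SE (adjusted *P* = 0.42). The difference between the lines, -0.18 ± 0.097, did not pass the threshold (adjusted *P* = 0.22), so a decrease particular to the *Carm1* line was not shown. With the offsets the *Pax3* value turned to 0.04 and the difference, at -0.29, passed it (adjusted *P* = 0.018, with 0.018 to 0.66 over all alternatives).

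The *Pax3* groups differ in the number of libraries with Y-linked transcripts. In a fit with a term for libraries that carry them, the log2 fold change in the *Pax3* line was -0.08 for *Sema3c* (adjusted *P* = 0.51), 0.48 for *Twist1* (adjusted *P* = 9.8e-08) and -0.48 for *Tfap2b* (adjusted *P* = 7.9e-07). A split of the libraries leaves 1 in an arm each time, so its values are given with no test. For *Sema3c*, among *Pax3* libraries without such transcripts (2 null, 1 wild type) the log2 ratio of mean CPM was -0.31, and among those with them (1 null, 2 wild type) it was 0.13. The same ratio was 0.53 and 0.41 for *Twist1* and -0.60 and -0.39 for *Tfap2b*. In the *Carm1* line only wild-type replicate 3 carried Y-linked transcripts, and without it the 4 called regulators kept their direction, with *Sema3c* at -0.30 and *Foxc1* at 0.30 on that scale.

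*Plxna2* and *Plxnd1* encode plexins, the transmembrane receptors of semaphorins. PLXNA2 acts with neuropilins in cardiac crest cells, and PLXND1 acts mainly in endothelium. *Plxna2* (chr1:194618218-194816869, plus strand) stood at 132, 137 and 145 CPM in *Carm1* null embryos and at 171, 163 and 156 CPM in wild type. It stood at 124, 124 and 128 CPM in *Pax3* null embryos and at 151, 138 and 138 CPM in wild type. No null embryo reached the wild-type range in either line. *Plxna2* fell in the *Carm1* line (log2 fold change -0.25 ± 0.047, adjusted *P* = 0.00038), where the call held in all 17 alternatives. It fell in the *Pax3* line with a log2 fold change of -0.18 ± 0.054 (adjusted *P* = 0.018). That call was lost without *Pax3* null replicate 1, 2 or 3 or *Pax3* wild-type replicate 1, with adjusted *P* from 0.051 to 0.075, and with the offsets the value was -0.08 (adjusted *P* = 0.27, with 0.0058 to 0.29 over all alternatives). The difference between the lines was -0.06, with limits of -0.20 and 0.08 at ± 2 SE.

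*Plxnd1* (chr6:115954811-115995005, minus strand) ranged from 147 to 151 CPM in *Carm1* null and from 139 to 166 CPM in *Carm1* wild-type embryos. It ranged from 139 to 163 CPM in *Pax3* null and from 145 to 167 CPM in *Pax3* wild-type embryos, and the groups overlapped in both lines. Its log2 fold changes were -0.02, with limits of -0.12 and 0.08 at ± 2 SE, and -0.06, with limits of -0.18 and 0.07 (adjusted *P* = 0.87 and 0.55). With the offsets the *Pax3* value was -0.15 and passed the threshold (adjusted *P* = 0.033, with 0.033 to 0.97 over all alternatives).

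*Ednra* (chr8:77663031-77724464, minus strand) encodes the endothelin receptor through which the lower jaw and the great vessels are patterned. It stood at 60.3, 60.5 and 62.1 CPM in *Carm1* null embryos and at 59.0, 62.7 and 56.0 CPM in wild type. It stood at 56.8, 59.0 and 52.6 CPM in *Pax3* null embryos and at 70.7, 61.1 and 58.4 CPM in wild type. The groups overlapped in both lines, in the *Pax3* line through a single pair, null replicate 2 and wild-type replicate 3. The log2 fold change was 0.04 ± 0.055 in the *Carm1* line (adjusted *P* = 0.70) and -0.17 ± 0.068 in the *Pax3* line (adjusted *P* = 0.076). The *Pax3* value passed the threshold with a term for Y-linked transcripts (adjusted *P* = 0.0086), with the replicate number as a block (0.05 when rounded), in one fit of all 12 libraries (0.037) and without *Pax3* wild-type replicate 3 (0.034), over a range of 0.0086 to 0.43 in all alternatives. That value was -0.08 without *Pax3* wild-type replicate 1 (adjusted *P* = 0.43) and -0.10 with the length and GC offsets (adjusted *P* = 0.31).

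In the *Carm1* line, then, 1 regulator rose (*Foxc1*), 3 fell (*Sema3c*, *Plxna2* and *Tfap2b*) and 6 did not pass the test. These 4 of 10 stand against 13.3% of the 15811 genes tested (5.49% higher and 7.83% lower). With the length and GC offsets the balance over all genes turned, from 868 higher and 1238 lower to 1966 higher and 1307 lower, while the median log2 fold change over all genes moved from 0.0014 to 0.0295. Among *Pax3* null embryos 3 rose (*Foxc1*, *Foxc2* and *Twist1*), 3 fell (*Plxna2*, *Tfap2a* and *Tfap2b*) and 4 did not pass, against 24.5% of 15724 genes (14.0% higher and 10.5% lower). The null and wild-type embryos did not overlap for 6 of the 10 in each line, 3 above and 3 below. Over all genes 30.0% did not overlap in the *Carm1* line (14.4% above and 15.6% below) and 39.9% in the *Pax3* line (19.6% above and 20.3% below). The difference between the lines passed for 3 of the 10, against 19.1% of 16292 genes (8.65% with a higher and 10.5% with a lower value in the *Carm1* line). The median absolute log2 fold change of the 10 genes was 0.15 in the *Carm1* line, against 0.10 over all genes, and 0.24 in the *Pax3* line, against 0.15 over all genes. For the difference it was 0.20, against 0.19 over all genes. Changes went in both directions, and the median signed values of the 10 genes were 0.03 and -0.08.

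**Figure D2:**
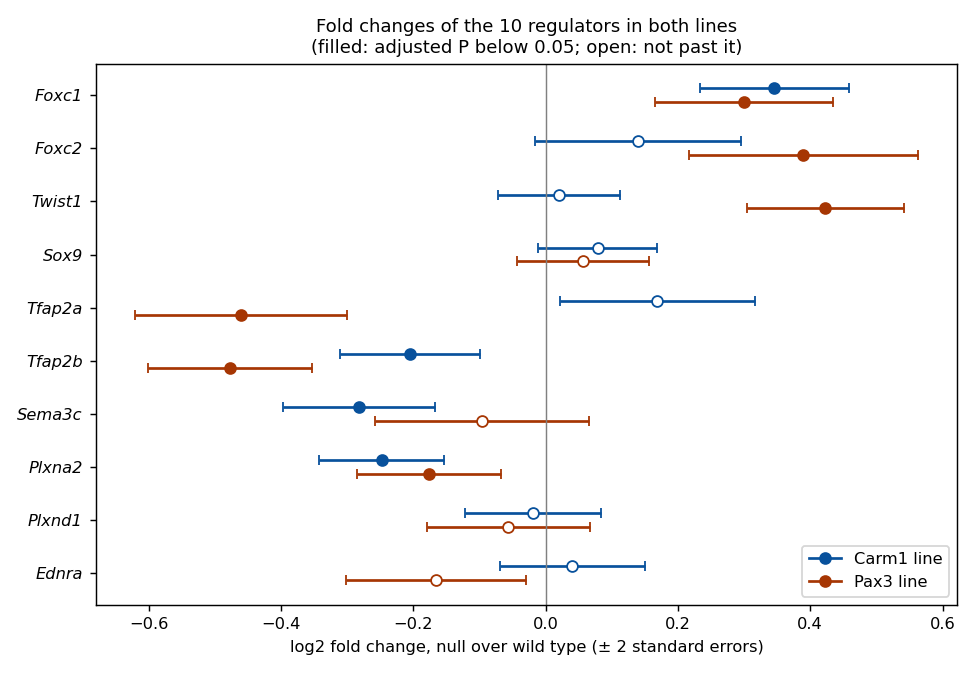
Log2 fold change, null over wild type, of the 10 regulators (bars are ± 2 SE derived from the edgeR test) in the *Carm1* line (blue) and the *Pax3* line (brown). Filled points passed an adjusted *P* of 0.05. *Foxc1* rose and *Plxna2* and *Tfap2b* fell in both lines, whereas *Tfap2a* lies at 0.17 in the *Carm1* line and at -0.46 in the *Pax3* line.

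To compare the genes with each other, CPM was divided by the length of their exons in kilobases. *Twist1* was the highest of the 10 on this scale in every group, from 82.3 ± 2.5 CPM per kb in *Carm1* wild-type to 123 ± 4.9 in *Pax3* null embryos (SD, n = 3). *Sox9* came next, with 35.5 ± 1.2 in *Carm1* wild-type and 49.1 ± 1.2 in *Pax3* wild-type embryos, followed by *Plxnd1* (21.5 to 22.8 across the 4 group means) and *Ednra* (15.5 to 17.5). *Tfap2a* was the lowest on this scale, from 4.87 ± 0.098 in *Pax3* null to 6.76 ± 0.29 CPM per kb in *Pax3* wild-type embryos, but that rank depends on the length used. Per kilobase of the longest transcript, *Tfap2a* stood above *Sema3c* in *Carm1* null (8.59 against 7.97) and *Pax3* wild-type embryos (8.70 against 8.29) and below it in *Carm1* wild-type (7.65 against 9.68) and *Pax3* null embryos (6.27 against 7.70). Neighbours in this order were apart in all embryos of a group for the first 3 genes. Among the middle genes *Ednra*, *Tfap2b* and *Plxna2* overlapped in the *Carm1* wild types, as did *Foxc1* and *Foxc2* in both wild-type groups. In *Pax3* null embryos *Foxc2* and *Foxc1* stood at 13.4 and 13.0 CPM per kb, overlapping with *Tfap2b* at 12.3, whereas in *Pax3* wild-type embryos *Tfap2b*, at 17.2, stood above both. Levels of the 2 lines come from different strains and colonies, so a contrast between their wild types describes these libraries and was not tested.

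**Figure D3:**
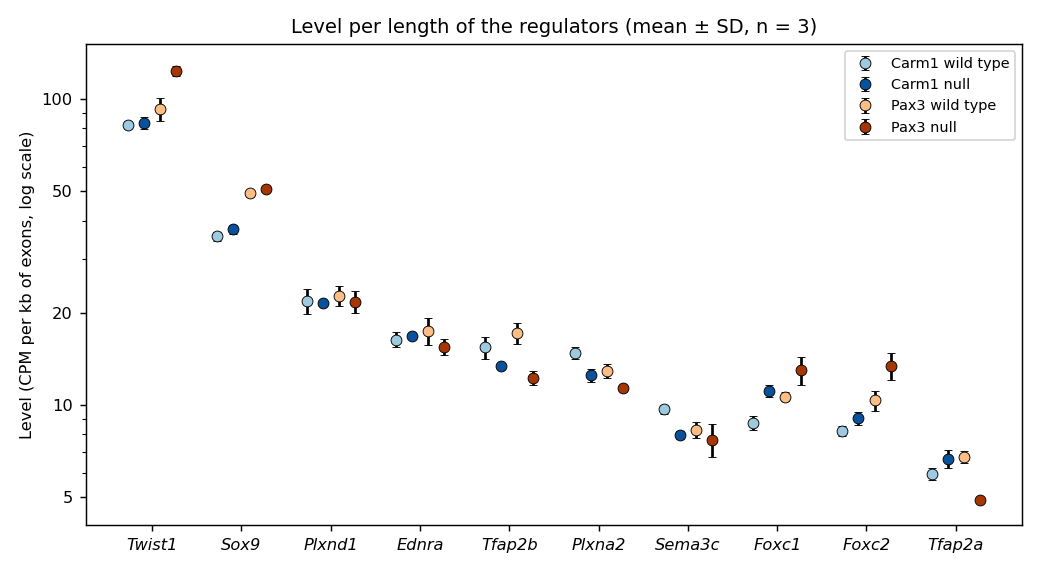
Level per kilobase of exon (log axis, mean ± SD of 3 embryos) of the 10 regulators in the 4 groups, ordered by their level in *Carm1* wild-type embryos. *Twist1* and *Sox9* lie highest in every group.

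Over the 12 libraries, with log2 CPM centred on the mean of each line, the Pearson *r* over all pairs of the 10 regulators went from -0.89 for *Foxc2* and *Tfap2b* to 0.90 for *Foxc2* and *Twist1*. When centred on each group instead, these pairs had an *r* of -0.47 and 0.70. The paralogues *Foxc1* and *Foxc2* had an *r* of 0.83 when centred on the line and of 0.72 when centred on the group, and the paralogues *Tfap2a* and *Tfap2b* one of 0.60 and -0.56. *Sema3c* and its receptor genes had an *r* of 0.77 and 0.32 for *Plxna2*, and of 0.12 and -0.01 for *Plxnd1*. These values, and those that follow, describe 12 libraries that share the contrasts above and differ in depth. They were calculated without offsets for transcript length and GC content, under which the fold changes of *Foxc2* and *Twist1* in the *Pax3* line were smaller. Shared regulation was not tested. Among 14796 genes compared in this way, those most like each called regulator had an *r* of at least 0.93. *Foxc1* was most like *Crispld2* (0.98) and *Homer3* (0.95), and *Foxc2* most like *Impdh1* (0.96), *Jun* (0.95) and *Dact3* (0.95). *Sema3c* was most like *Tbx15* (0.94), *Myt1l* (0.94) and *Cecr6* (0.93). *Plxna2* was most like *Atp2b4* (0.98), *Ablim3* (0.97) and *Pde5a* (0.96). *Tfap2a* was most like *Brca1* (0.98), *Slain2* (0.96) and *Dcakd* (0.95), *Tfap2b* most like *St8sia2*, *Ina* and *Ibtk* (0.98 each), and *Twist1* most like *Mrps11* (0.99), *Ccs* (0.98) and *Rabac1* (0.98).

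Most of the remaining genes of the same pathways did not pass the test in each line, and those that did went in both directions. Of 19 other semaphorins, 4 rose and 1 fell in the *Carm1* line (median log2 fold change -0.01, against 0.00 over all genes) and 4 rose and 4 fell in the *Pax3* line (median 0.07, against 0.00). *Sema3b* (0.45, adjusted *P* = 0.019) and *Sema3g* (0.41, adjusted *P* = 0.011), which like *Sema3c* encode secreted class 3 ligands, rose in *Carm1* null embryos while *Sema3c* fell. *Sema7a*, which encodes a membrane-anchored semaphorin, rose there as well (0.37, adjusted *P* = 0.016), and *Sema5a*, which encodes a transmembrane one, fell (-0.17, adjusted *P* = 0.017). In *Pax3* null embryos *Sema3d*, another class 3 ligand, fell (-0.36, adjusted *P* = 0.003), while *Sema4c* (0.24, adjusted *P* = 0.0056), *Sema4f* (0.31, adjusted *P* = 0.028) and *Sema7a* (0.28, adjusted *P* = 0.038) rose. Of 9 other plexins and neuropilins, *Plxna1* rose in the *Carm1* line (0.16, adjusted *P* = 0.022), and in the *Pax3* line *Plxna4* fell (-0.32, adjusted *P* = 0.00044) and *Plxnb1* rose (0.18, adjusted *P* = 0.034), with medians of 0.00 and -0.04. The SEMA3 coreceptors *Nrp1* (0.05 and -0.15) and *Nrp2* (-0.08 and -0.04) did not pass in either line. Of the calls named here, that of *Plxna1* was lost in 7 of 17 alternatives (0.10 to 0.22, adjusted *P* up to 0.14), those of *Sema3b* and *Plxnb1* in 4, those of *Sema3g* and *Sema3d* in 2, and that of *Plxna4* in 0. The call of *Sema7a* was lost in 4 alternatives in the *Carm1* line and in 8 in the *Pax3* line, that of *Sema5a* in 3, that of *Sema4f* in 7 and that of *Sema4c* in 0. With the length and GC offsets the *Pax3* line values were -0.16 for *Sema3d* (adjusted *P* = 0.16), 0.18 for *Sema7a* (adjusted *P* = 0.22) and 0.16 for *Sema4c* (adjusted *P* = 0.037), and without *Carm1* wild-type replicate 3 *Sema7a* was 0.22 in that line (adjusted *P* = 0.13).

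Of 15 tested genes of endothelin signalling and jaw patterning, 1 rose and 1 fell in the *Carm1* line, and 2 rose and 2 fell in the *Pax3* line (medians -0.03 and -0.04). *Ednrb*, the endothelin receptor of melanoblasts and enteric crest, was higher in *Carm1* null embryos (0.30, adjusted *P* = 4.5e-05) and lower in *Pax3* null embryos (-0.37, adjusted *P* = 3.5e-05), and the difference between the lines passed (0.69, adjusted *P* = 1.5e-07), as for *Tfap2a*. *Mef2c*, a factor of heart, muscle and facial crest, fell in both (-0.27, adjusted *P* = 0.00022, and -0.61, adjusted *P* = 8.5e-08). *Hand2*, a target of EDNRA signalling in the lower jaw, rose in *Pax3* null embryos (0.39, adjusted *P* = 0.00016, and 0.23 with the length and GC offsets, adjusted *P* = 0.013), and *Ece2* rose as well (0.28, adjusted *P* = 0.029, lost in 6 of 17 alternatives), while *Ednra* itself did not pass.

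Of 24 other neural crest transcription factors, 7 rose and 2 fell in the *Carm1* line (median 0.12), and 3 rose and 5 fell in the *Pax3* line (median -0.08). The 24 include *Pax3* itself, the gene disrupted in the *Pax3* line, which is among the 5 that fell there. *Tfap2c*, a further AP-2 gene, rose in *Carm1* null embryos (0.38, adjusted *P* = 0.019), as did *Pax7* (0.36, adjusted *P* = 0.0088) and *Pax3*. In *Pax3* null embryos *Sox10*, the factor of crest-derived glia, fell (-0.89, adjusted *P* = 7.8e-08), while *Msx1* (0.48, adjusted *P* = 9.2e-05), a factor of facial mesenchyme, rose, as *Twist1* did. The call was lost in 5 of 17 alternatives for *Tfap2c* (adjusted *P* up to 0.11) and in 3 for *Pax7*, and in 0 for *Sox10* and *Msx1*, although the value of *Msx1* was 0.29 with the offsets (adjusted *P* up to 0.0066 over all alternatives). Of 18 genes of the outflow tract and second heart field, 3 rose and 0 fell in the *Carm1* line by edgeR and by DESeq2, with 0 lower at an unadjusted *P* under 0.05 (median 0.02). These were *Fgf8* (0.99, adjusted *P* = 0.011), *Cxcr4* (0.30, adjusted *P* = 0.0049) and *Notch1* (0.18, adjusted *P* = 0.043). In the *Pax3* line 1 rose, *Fgf8* (0.69, adjusted *P* = 0.026), and 2 fell, among them *Isl1* (-0.42, adjusted *P* = 0.00023), with a median of -0.03. *Fgf8* kept its call in 16 of 17 alternatives in the *Carm1* line and in 11 in the *Pax3* line, where it was 0.32 with the offsets (adjusted *P* = 0.39) and DESeq2 called 0 of the 18 genes higher. *Notch1* lost its call in 6 of 17, with adjusted *P* up to 0.16. Of 11 other forkhead genes, 0 passed in the *Carm1* line by edgeR or DESeq2 (2 and 1 with an unadjusted *P* under 0.05, median 0.05), and in the *Pax3* line 2 rose, *Foxd1* (0.60, adjusted *P* = 2e-07) and *Foxd2* (0.42, adjusted *P* = 0.0062), and 1 fell, *Foxp2* (-0.23, adjusted *P* = 0.014), with a median of 0.18. *Foxp2* lost its call in 5 of 17 alternatives, with -0.07 under the offsets (adjusted *P* = 0.40), and *Foxd2* in 3, with 0.23 under the offsets (adjusted *P* = 0.14).

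**Figure D4:**
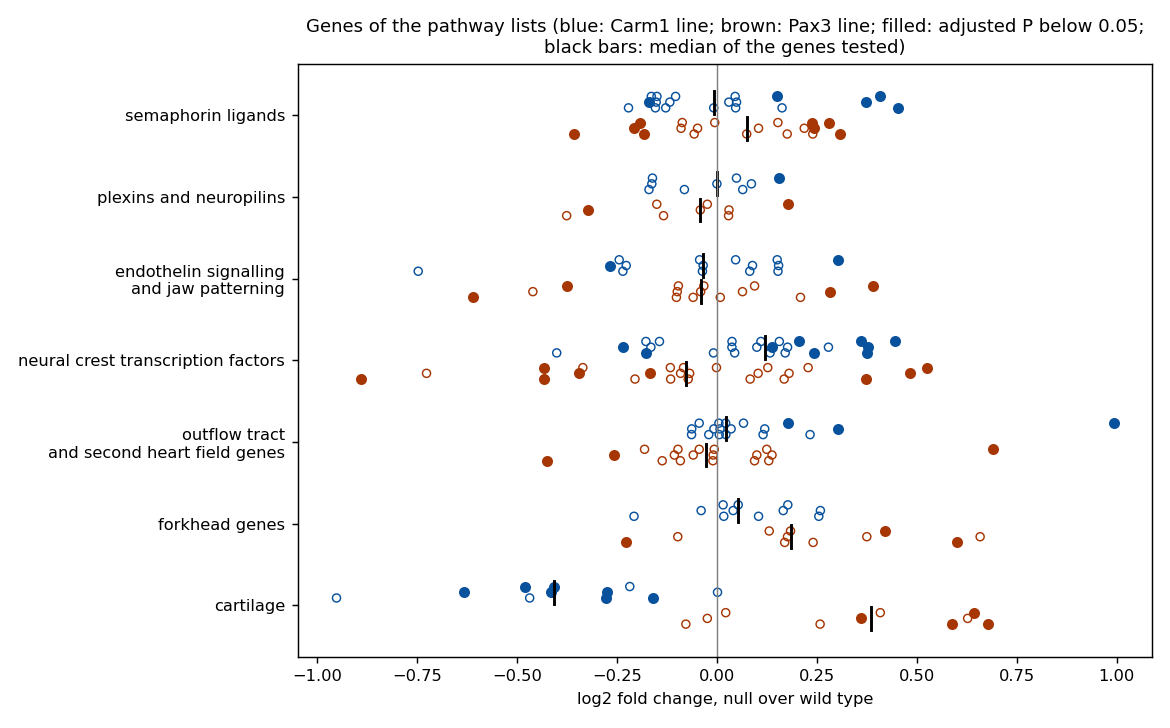
Log2 fold change, null over wild type, of the genes of the pathway lists and of cartilage markers, without the 10 regulators themselves, in the *Carm1* line (blue) and the *Pax3* line (brown); filled points passed an adjusted *P* of 0.05 and black bars are medians. Cartilage genes lie mostly below 0 in the *Carm1* line (median -0.41) and above 0 in the *Pax3* line (median 0.38), while the other lists spread to both sides.

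Some markers of cell types that use these regulators passed the test as well. Of 11 tested cartilage genes, many of them targets of SOX9, 7 fell in the *Carm1* line and 0 rose (median -0.41), led by *Acan* (-0.63, adjusted *P* = 0.00022) and *Col9a3* (-0.48, adjusted *P* = 4e-06), and 4 of 10 rose in the *Pax3* line (median 0.38), led by *Col11a2* (0.68, adjusted *P* = 0.0022) and *Col9a3* (0.64, adjusted *P* = 0.0031). The call of *Acan* in the *Carm1* line was lost in 1 of 17 alternatives (adjusted *P* up to 0.056). That of *Col9a3* in the *Pax3* line was lost in 2 of 17 (adjusted *P* up to 0.098). *Sox9* did not pass in either line. The summed level of the 12 cartilage genes ranged from 1162 to 1201 CPM in *Carm1* null and 1212 to 1496 in *Carm1* wild-type embryos, and from 1006 to 1182 in *Pax3* null and 776 to 1010 in *Pax3* wild-type embryos.

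Beside the AP-2 genes, the 9 genes of crest-derived glia summed to 344 to 360.4 CPM in *Carm1* null and 309 to 322 in *Carm1* wild-type embryos, and to 267 to 284 in *Pax3* null and 287 to 311 in *Pax3* wild-type embryos. In the *Pax3* line 5 of these 9 fell and 1 rose (median -0.40), led by *Cdh19* (-1.15, adjusted *P* = 0.00058) and *Sox10*, and in the *Carm1* line 1 rose, *Fabp7* (0.37, adjusted *P* = 0.00027), and 0 fell (median 0.02). *Fabp7* alone stood at a mean of 166 CPM in *Carm1* null and 128 in *Carm1* wild-type embryos, a wider gap than that between the mean sums, and it was also the gene that rose in the *Pax3* line (0.20, adjusted *P* = 0.022). The 10 genes of sensory and sympathetic neurons summed to 192 to 197 CPM in *Carm1* null and 203 to 218 in *Carm1* wild-type embryos, and to 149.9 to 154 in *Pax3* null and 175 to 183 in *Pax3* wild-type embryos. Of these, 2 fell in the *Carm1* line, among them *Prph* (-0.35, adjusted *P* = 0.0012), and 4 fell and 1 rose in the *Pax3* line, led by *Dbh* (-2.39, adjusted *P* = 1.4e-06). In epidermis, where AP-2 genes are also used, 3 of 8 fell in the *Carm1* line, led by *Krt14* (-0.70, adjusted *P* = 1.6e-07) and *Krt5* (-0.62, adjusted *P* = 9.7e-10), and 1 of 8, *Krt15*, rose in the *Pax3* line (0.68, adjusted *P* = 7.1e-06), with medians over the 8 genes of -0.15 and 0.13. The part of these cell types in the values of the regulators was not tested.

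For the other cell types, 5 of 7 skeletal muscle genes fell in the *Carm1* line and 6 of 7 in the *Pax3* line. Of 8 hepatocyte genes, 7 fell in the *Carm1* line, and 2 fell and 1 rose in the *Pax3* line. Of 8 cardiac muscle genes, 5 fell in the *Carm1* line, and 5 rose and 1 fell in the *Pax3* line. Of 7 neural progenitor genes, 7 rose in the *Carm1* line, and 4 rose and 1 fell in the *Pax3* line. Of 8 genes of neurons, 4 fell in the *Carm1* line and 3 in the *Pax3* line, and the others did not pass. Of 8 endothelial genes, 2 rose in the *Carm1* line and 1 in the *Pax3* line. With the length and GC offsets the *Pax3* line calls of the progenitor genes *Hes5* (0.50 as reported, 0.15 with the offsets) and *Sox3* (0.46 and 0.20), the neuronal gene *Dcx* (-0.26 and -0.07) and the endothelial gene *Cldn5* (0.37 and 0.07) were lost. Of 5 melanoblast genes edgeR called 1 higher in the *Carm1* line, *Kit* (0.19, adjusted *P* = 0.031), which lost its call in 7 of 17 alternatives (adjusted *P* up to 0.16), and DESeq2 called 0 of the 5. Of 6 erythroid genes 4 fell there by edgeR and by DESeq2, and DESeq2 called 1 higher as well. For both these lists edgeR called 0 of 6 in the *Pax3* line, as DESeq2 did, and 0 had an unadjusted *P* under 0.05.

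Fold changes in the *Pax3* line followed the length and base composition of transcripts. The median log2 fold change over all genes went from 0.17 among the 3903 genes with the shortest transcripts to -0.10 among the 3901 with the longest, when genes are split into 4 bins of length, and from -0.11 in the bin of lowest GC content to 0.16 in that of highest, when split into 4 by GC content. The medians of the same bins in the *Carm1* line lay between -0.01 and 0.01. *Twist1* is at percentile 17.3 of length and 92.8 of GC content among the genes tested in the *Pax3* line, *Foxc2* at 41.7 and 97.7, and *Plxna2* at 98.4 and 46.4. With offsets that remove the trend within each library, *Twist1* kept its call at a value under that reported by more than 1.5 times, *Foxc2* and *Plxna2* lost theirs, and *Plxnd1* gained one. *Foxc1* (0.28, adjusted *P* = 0.0012), *Tfap2a* (-0.41, adjusted *P* = 0.00037) and *Tfap2b* (-0.37, adjusted *P* = 2.3e-05) kept theirs. In the *Carm1* line the 4 called regulators kept their calls under the offsets, from -0.25 for *Sema3c* to 0.37 for *Foxc1*, and *Tfap2a* (0.19 against 0.17 as reported, adjusted *P* = 0.042, with 0.042 to 0.44 over all alternatives) and *Sox9* (0.11 against 0.08) passed the threshold as well. Both moved up by about as much as the median of all genes did under the offsets in that line, so their gained calls are not read as changes relative to other genes.

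**Figure D5:**
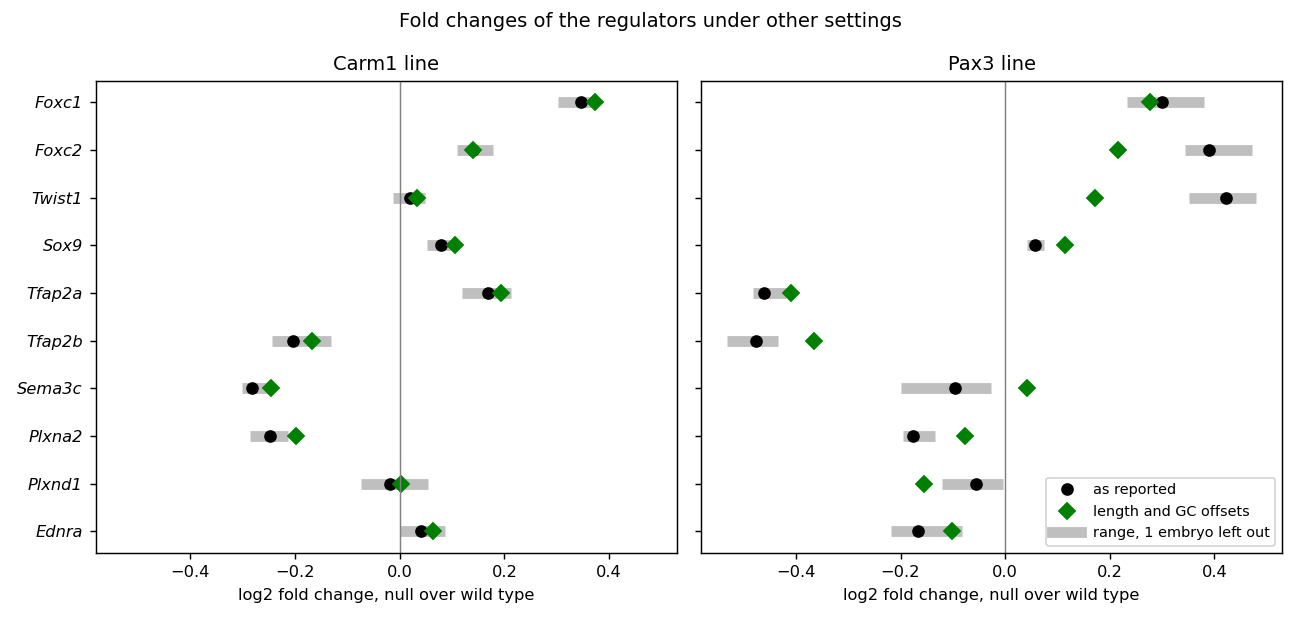
Log2 fold change of the 10 regulators in both lines as reported (black), with length and GC offsets (green diamonds), and over the fits that leave out 1 embryo (grey, lowest to highest). In the *Pax3* line the offsets move *Twist1* from 0.42 to 0.17, *Foxc2* from 0.39 to 0.22 and *Sema3c* from -0.10 to 0.04. Of the 10 regulators only *Sema3c* crosses 0 in that line.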

How the data were processed

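Polyadenylated RNA of 12 whole E12.5 embryos, 3 in each group, had been sequenced as paired reads. The authors aligned them to mm10 with STAR and deposited raw counts per gene, made with featureCounts on exons, not normalized or pooled. Versions, strand and the handling of multiply aligned reads are not given in the sources used here. Symbols were matched to GENCODE (GRCm38, the build of mm10), 21777 of 23420 as written and 1278 through an older symbol. Libraries held 17183344 to 23518692 counts, and pairs of replicates differed by more than counting noise (chi-square per degree of freedom 3.15 to 24.4).

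Each line was tested by edgeR (version 4.0.16, R 4.3.3) with the robust quasi-likelihood test, TMM scaling, filterByExpr and Benjamini-Hochberg adjustment over all genes (threshold 0.05), and the difference between the lines as a contrast in one fit of 12 libraries. SE values were derived from the test, as the absolute log2 fold change divided by the square root of its F statistic. With 3 embryos against 3, an exact permutation test has 0.1 as its smallest p. All p-values measure the spread between these embryos.

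Genes named are the 10 regulators, the 2 targeted genes, for each pathway list and line at most 4 called genes with the largest fold change, for each marker list at most 2, and for each called regulator the 3 genes of highest *r* among those with a mean of at least 1 CPM. *Nrp1* and *Nrp2* and the values of both lines for a gene named in one were added after the values were seen. Some genes that these rules name are not reported here. The regulators, lists and rules were chosen with earlier results of these data known. Alternatives were DESeq2 (version 1.42.0), RLE and upper-quartile factors, no filter, at least 10 counts in every library, a replicate block, length and GC offsets (splines with 5 degrees of freedom per library), both together, a term for libraries with at least 100 Y-linked counts, no robust estimation, one fit of 12 libraries, and leaving out each library.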

Additional observations from a re-analysis of the deposited data

Results flagged for a closer look

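For 3 of the 10 regulators the change differed between the lines by the test of the difference itself, the log2 fold change in the *Carm1* line minus that in the *Pax3* line (edgeR, adjusted over 16292 genes). *Tfap2a* differed by 0.64 (adjusted *P* = 7e-05), with null embryos above all wild types in the *Carm1* line and below all wild types in the *Pax3* line. Its value in the *Carm1* line, 0.17, did not itself pass (edgeR, adjusted *P* = 0.13). Over all genes the groups did not overlap for 30.0% in the *Carm1* line and 39.9% in the *Pax3* line. *Twist1* differed by -0.39 (adjusted *P* = 0.00041), with higher values in all 3 *Pax3* null embryos and overlapping groups in the *Carm1* line, but with the length and GC offsets the difference was -0.15 and did not pass (adjusted *P* = 0.071). *Tfap2b* differed by 0.28 (adjusted *P* = 0.017), being lower in all 3 null embryos of both lines, and with the offsets by 0.20, which did not pass (adjusted *P* = 0.057). The lines also differ in strain and colony, which cannot be told apart from the allele in this comparison.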

How the results depend on the processing

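Over 17 alternatives in each line and 22 for the difference, the number of regulators called ranged from 3 to 6 in the *Carm1* line (4 as reported), from 5 to 7 in the *Pax3* line (6) and from 2 to 4 for the difference (3). Values that changed sign were all under 0.1 in size as reported, and none had passed the test. In the *Carm1* line *Plxnd1* turned to 0.0032 with the length and GC offsets and to 0.0027 with the replicate block and offsets, ranging from -0.074 to 0.055 over left-out embryos. *Twist1* turned to -0.0031 with the term for Y-linked counts, ranging from -0.012 to 0.049 over left-out embryos. In the *Pax3* line *Sema3c* turned to 0.041 with the offsets and 0.039 with block and offsets. For the difference, *Sox9* turned to -0.0079 and -0.0090 under the same pair of settings, while over left-out embryos *Foxc1* ranged from -0.024 to 0.12 and *Plxnd1* from -0.0081 to 0.13. The cause was not tested. Over all genes, calls in the *Carm1* line rose from 2106 to 3273 with the offsets and 3247 with block and offsets, and ranged from 1224 to 2290 over left-out embryos; calls in the *Pax3* line fell from 3851 to 2438 and 2434, and ranged from 2454 to 4103. Of the pathway lists, the semaphorins that rose numbered 2 with DESeq2 in each line, against 4 with edgeR.

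Replicate numbers are shared by the labels of the groups. In the *Carm1* line, deviations of same-numbered null and wild-type embryos correlated at -0.04, 0.00 and -0.04, and those of unlike number at -0.01 to 0.05. The values in the *Pax3* line were 0.10, -0.12 and 0.23 for the same number, and -0.34 to 0.27 for unlike numbers. Deviations from a mean of 3 embryos depend on each other, so these values do not decide whether the numbers pair the embryos. With the replicate block, 1787 genes were called in the *Carm1* line, 4177 in the *Pax3* line and 3094 for the difference, with 4, 7 and 3 regulators among them. With 3 embryos in a group, SEs of the regulators within each line lay between 0.045 and 0.087 on the log2 scale. For the difference between the lines they reached 0.12. Such SEs limit the size of change that could be called.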
